A study of Mus musculus with 8 samples.

Results

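The genes described here were 9 feedback and target genes of the ERK pathway, taken by name from the gene table: the phosphatase genes *Dusp6* and *Dusp4*, the Sprouty and Spred inhibitor genes *Spry1*, *Spry2*, *Spred1* and *Spred2*, and the transcription factor genes *Etv5*, *Etv4* and *Myc*. All 9 were among the 20308 genes in the table, and all 9 were among the 13407 genes that passed a filter on low counts and were tested. They were chosen by name, with no threshold on a measured value.

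CSF1 is a secreted growth factor that microglia need to survive and divide, and its receptor CSF1R is a receptor tyrosine kinase that can switch on RAS, RAF, MEK and finally the kinase ERK. Active ERK induces a set of genes whose products act back on the pathway: DUSP phosphatases remove phosphate from ERK, while Sprouty and Spred proteins act upstream at the level of RAS and RAF. The ETS factors ETV4 and ETV5 and the growth regulator MYC are also products of genes that ERK signaling commonly turns on, so transcripts of this group are widely used as a readout of ERK output.

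RNA-seq was performed on CD11b+ cells that were pulled down with magnetic beads from the right brain hemisphere after removal of myelin. Mice were F1 animals of C57Bl/6 and CD1 aged p14 or p15, with 4 mice per genotype and 1 library per mouse. In CSF1 OE mice some of the cells that express GFAP, an astrocyte protein, make extra secreted CSF1 from a transgene under TRE/tTA control. Control mice had the same background, and which parts of the transgene system they carry is not given in the sources used here. The control mice had the animal numbers 1827, 1872, 1874 and 1934 and the CSF1 OE mice 1931, 1932, 1936 and 2019, and per-mouse values below follow this order. The comparison asks whether transcripts that report ERK output differed in CD11b+ cells exposed to more CSF1.

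Libraries held between 12053259 and 15475465 counts. Values are CPM, the count of a gene scaled to the normalized size of its library, and log2 fold changes are given with their standard error (SE) or 95% interval. *Csf1* itself had 364, 310.1, 139 and 317 CPM in the control mice and 388, 400.1, 333 and 167 CPM in the CSF1 OE mice, with overlapping genotypes (log2 fold change 0.19, edgeR adjusted p = 0.796). Because the transgene is meant for GFAP+ cells, its level in CD11b+ cells does not check the labels. All 10 microglia markers examined were tested, and their summed level ran from 21926 to 38294 CPM in the control mice and from 28192 to 39242 CPM in the CSF1 OE mice. Markers of oligodendrocytes summed to 2975 to 6221 CPM in the control mice and 1625 to 5040 CPM in the CSF1 OE mice, and those of border macrophages to 2937 to 4014 and 2081 to 3189 CPM. Endothelial markers summed to 800.2 to 1339 CPM in the control mice and 384 to 926 CPM in the CSF1 OE mice. In RNA from mixed cells, fewer cells of a type and less RNA per cell cannot be told apart.

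None of the 9 genes was called differentially expressed. A gene was called at a Benjamini-Hochberg adjusted p under 0.05 from the quasi-likelihood test of edgeR together with a fold change under 0.7 or over its reciprocal. The call was made for 0 of 9 genes against 0.44% of all genes tested (59 genes), and without the fold limit 0 of 9 passed, against 0.507%. At an unadjusted p under 0.05 there were 2 of 9, where 16.5% of all genes passed. *Spry1* had a lower estimate in CSF1 OE (1 of 9, against 6.44% of all genes) and *Etv4* a higher one (1 of 9, against 10.1%). DESeq2 also called 0 of the 9 and limma 0, each with 2 at an unadjusted p under 0.05. Over all genes, DESeq2 called 427 of 16835, and 2513 had an unadjusted p under 0.05. Of 13407 genes, limma called 104 or 99 by pseudocount, and 2306 or 2307 had an unadjusted p under 0.05. The mice of the genotypes overlapped in all 9 genes, while they did not overlap in 10.3% of genes tested. Of the log2 fold changes, given as CSF1 OE against control throughout, 3 were above and 6 below 0, with a median of -0.12 beside -0.034 over all genes tested.

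**Figure D1:**
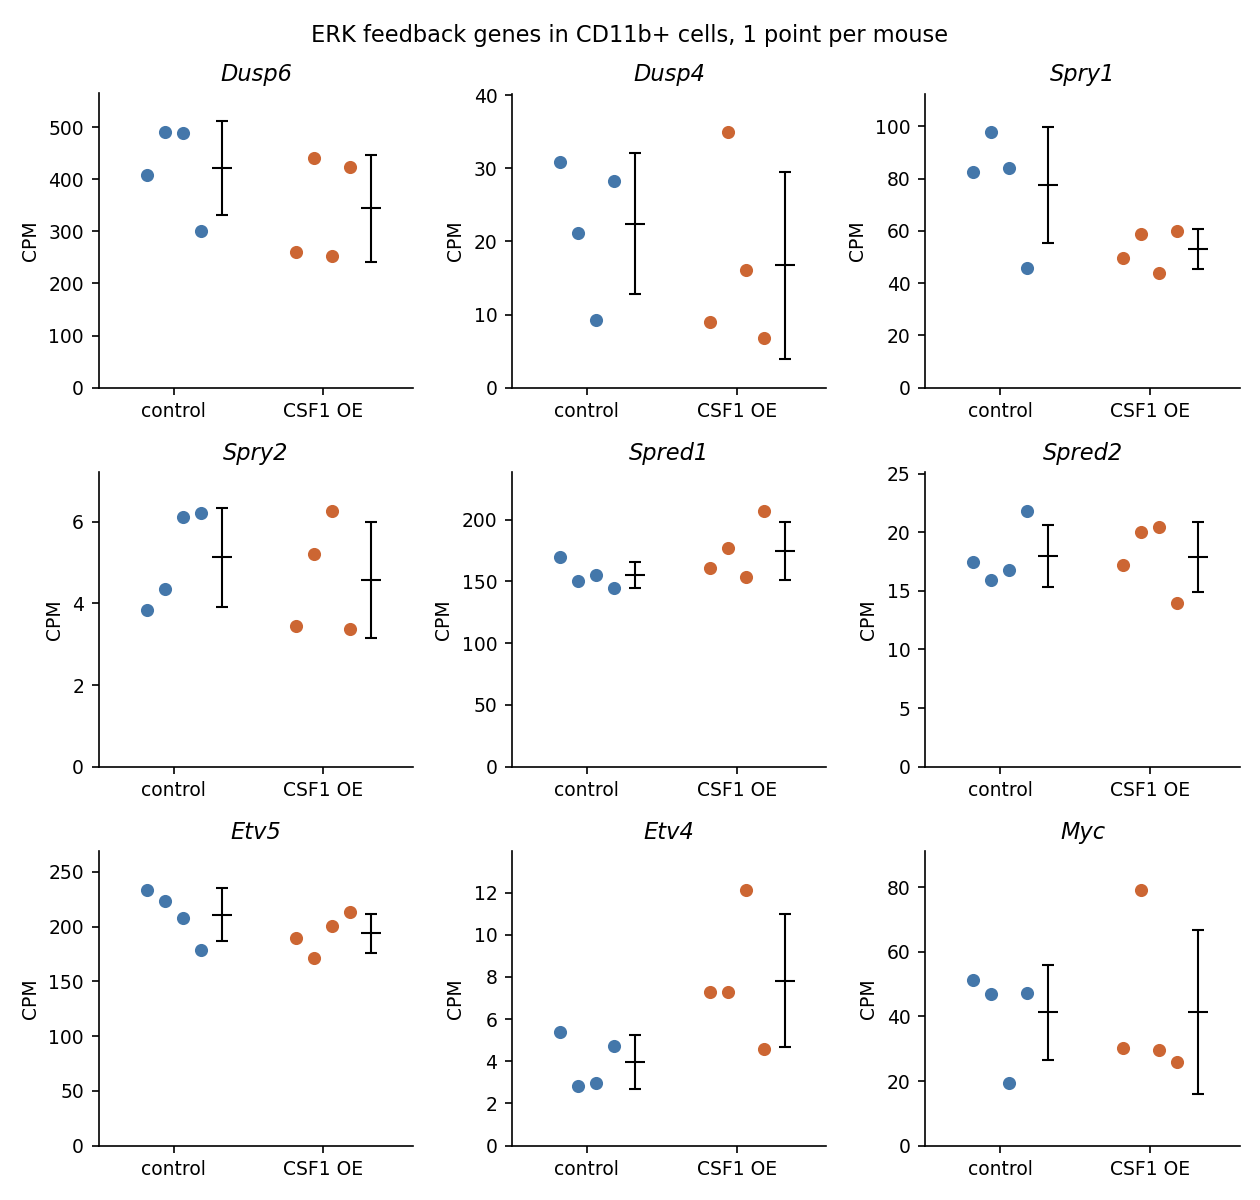
CPM of the 9 ERK feedback genes (y axis, from 0) in CD11b+ cells of control (blue) and CSF1 OE (orange) mice, with 1 point per mouse and the mean ± SD of 4 mice beside them. The genotypes overlap in every panel, and the closest to a separation is *Etv4*, with 3 of 4 CSF1 OE mice above the highest control mouse.

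Levels differed widely between the genes. Divided by the length of each gene's merged exons, to allow genes to be compared, *Dusp6* stood highest in control mice with 135 ± 28.7 CPM per kb (SD, n = 4), followed by *Etv5* with 51.4 ± 5.87 CPM per kb. In control mice *Spry1* (26.7 CPM per kb) and *Spred1* (22.9 CPM per kb) overlapped, as did *Myc* (15.2 CPM per kb) and *Dusp4* (8.17 CPM per kb), and *Dusp4* and *Spred2* (3.90 CPM per kb). *Spry2* (2.46 CPM per kb) and *Etv4* (1.28 CPM per kb) were lowest and did not overlap with each other. In CSF1 OE mice the order was kept for the first pair, while the mean of *Spred1* (25.7 CPM per kb) was above that of *Spry1* (18.3 CPM per kb) and the mean of *Etv4* (2.52 CPM per kb) above that of *Spry2* (2.19 CPM per kb). In CPM, which is not divided by length, mean *Dusp6* was higher than that of 97.3% of genes tested, and mean *Spry2* higher than that of 18.2%.

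*Dusp6* encodes a cytoplasmic phosphatase specific for ERK and lies on chromosome 10 from 99263231 to 99267489 on the forward strand (GRCm38, as are all gene positions here). All 9 genes are protein coding. It had 408, 491, 489.6 and 301 CPM in the control mice and 259.7, 441, 253 and 423 CPM in the CSF1 OE mice. The low values belonged to control mouse 1934 and CSF1 OE mice 1931 and 1936, and the genotypes overlapped. Means were 422 ± 90.0 CPM in the control mice and 344 ± 102 CPM in the CSF1 OE mice (SD, n = 4 each) and the log2 fold change was -0.30 (95% interval -0.82 to 0.23, edgeR adjusted p = 0.554). With a term for animal numbers, described at *Spry1*, the estimate was -0.025.

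*Dusp4* encodes a nuclear phosphatase that acts on ERK and other MAP kinases and lies on chromosome 8 from 34807297 to 34819894. It was measured at 30.8, 21.2, 9.30 and 28.3 CPM in the control mice and at 9.03, 35.0, 16.1 and 6.82 CPM in the CSF1 OE mice. Both genotypes held mice with high and with low values, and the highest mouse had 5.13-fold the level of the lowest. Its within-genotype SD on the log2 scale, 0.91, exceeded that of 96.8% of genes tested. The log2 fold change was -0.42 (95% interval -1.61 to 0.77, edgeR adjusted p = 0.719), and it was -1.07 without CSF1 OE mouse 1932 (edgeR adjusted p = 0.284). Its estimate was -0.98 with the term for animal numbers.

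*Spry1* encodes a Sprouty protein, an inhibitor of signaling from receptor tyrosine kinases to RAS and ERK, and lies on chromosome 3 from 37639947 to 37644598. Its values were 82.5, 97.9, 83.9 and 45.8 CPM in the control mice and 49.7, 58.6, 44.0 and 60.1 CPM in the CSF1 OE mice. Control mice 1827, 1872 and 1874 were above every CSF1 OE mouse, whereas control mouse 1934 was below 3 of the 4. Mean expression was 77.5 ± 22.2 CPM in the control mice and 53.1 ± 7.61 CPM in the CSF1 OE mice (SD, n = 4 each). The log2 fold change was -0.55 ± 0.21 (SE), with a 95% interval from -1.03 to -0.060 and an edgeR adjusted p of 0.255. Among mice numbered 1931 to 1936, with 1 control and 3 CSF1 OE mice, the log2 ratio of the means was 0.15, and among the others, with 3 control mice and 1 CSF1 OE mouse, it was -0.55. With a term for this range of animal numbers the log2 fold change was -0.20 (edgeR adjusted p = 0.446), and without control mouse 1934 it was -0.72 (edgeR adjusted p = 0.0794). That mouse also had the lowest summed level of the 10 microglia markers, 21926 CPM beside 28192 to 39242 CPM in the other 7 mice. The exons of *Spry1* overlap an annotated transcript on the other strand that is not in the gene table, and the library kit does not mark strand, so reads of both cannot be told apart. The 10 endothelial markers all had lower estimates in CSF1 OE (median log2 fold change -0.70, 0 called), as had the 8 border macrophage markers (median -0.44, 0 called). Control mouse 1934, the lowest control mouse for *Spry1*, had the highest endothelial sum, 1339 CPM. CSF1 OE mouse 2019, the highest CSF1 OE mouse for *Spry1*, had the lowest, 384 CPM. The border macrophage sum, like *Spry1*, was highest in control mouse 1872 (4014 CPM) and lowest in CSF1 OE mouse 1936 (2081 CPM). The part of these cells in the *Spry1* values was not tested.

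The 250 bases upstream of the starts of *Dusp6* and *Spry1* are shown because the levels of these genes went up and down together over the 8 mice, although not past the adjusted test given below. Both are written 5′ to 3′ from RefSeq on GRCm38.p6, at chr10:99262981-99263230 and chr3:37639697-37639946, both on the forward strand, with capitals marking the core motif GGAA of ETS factors on either strand.
Dusp6: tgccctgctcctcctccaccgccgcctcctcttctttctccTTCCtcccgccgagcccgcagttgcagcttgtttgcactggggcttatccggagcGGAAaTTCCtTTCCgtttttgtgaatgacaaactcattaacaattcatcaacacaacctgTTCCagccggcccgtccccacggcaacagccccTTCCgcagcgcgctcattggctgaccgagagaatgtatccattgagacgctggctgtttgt
Spry1: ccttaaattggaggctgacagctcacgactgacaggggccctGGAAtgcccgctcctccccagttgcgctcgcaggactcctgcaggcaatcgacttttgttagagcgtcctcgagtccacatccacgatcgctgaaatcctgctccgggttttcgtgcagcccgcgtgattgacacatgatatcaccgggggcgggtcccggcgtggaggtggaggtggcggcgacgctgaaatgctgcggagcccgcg
The *Dusp6* window held 6 such cores and the *Spry1* window 1. The core is short, and 93.4% of 32851 mouse promoter windows of this length held it, with a median of 3. RefSeq windows were matched for 6 of the 9 genes, with 7 windows in all, of which 6 held the core. The longer ETS motif CCGGAA (in 12% of all windows), the AP-1 motif TGACTCA (4.46%), the E-box CACGTG bound by MYC (6.02%) and the CRE motif TGACGTCA (1.55%), searched on both strands, were in 0 of the 7. The longer ETS motif contains the core. These are matches of letters only, and no binding was measured.

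*Spry2*, a second Sprouty gene on chromosome 14 from 105891947 to 105896819 (reverse strand), was expressed at a low level. It had 3.83, 4.36, 6.12 and 6.21 CPM in the control mice and 3.45, 5.22, 6.27 and 3.36 CPM in the CSF1 OE mice, which rest on 38 to 105 counts a library. Each genotype held both low and high values, and the log2 fold change was -0.16 (95% interval -0.78 to 0.46, edgeR adjusted p = 0.791). Its estimate was -0.40 with the term for animal numbers. The 3 highest mice, controls 1874 and 1934 and CSF1 OE mouse 1936, were also the 3 highest for the sum of 9 markers of oligodendrocyte precursor cells (OPCs), with 367, 464 and 541 CPM, while the other mice had 127 to 282 CPM. Mice 1874, 1934 and 1936 were also the 3 highest for the sums of endothelial, mural, astrocyte, oligodendrocyte and monocyte markers. Astrocyte markers, for example, summed to 680, 764 and 780 CPM in them, and to 336 to 505 CPM in the other mice. The match was therefore not particular to OPCs. The part of any of these cells in the *Spry2* values was not tested.

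*Spred1* and *Spred2* encode related membrane-bound inhibitors, and the SPRED1 protein brings the RAS inactivator neurofibromin to the membrane. *Spred1*, on chromosome 2 from 117121374 to 117182279, had 169.7, 150.4, 156 and 145 CPM in the control mice and 160.4, 177, 154 and 207 CPM in the CSF1 OE mice. CSF1 OE mice 1932 and 2019 were above every control mouse, and the other CSF1 OE mice were within the control range. The means were 155 ± 10.7 and 175 ± 23.8 CPM (SD, n = 4 each) and the log2 fold change was 0.17 (95% interval -0.072 to 0.41, edgeR adjusted p = 0.457). With the term for animal numbers the log2 fold change was 0.28 (edgeR adjusted p = 0.0739), and without CSF1 OE mouse 2019 it was 0.079.

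*Spred2*, on chromosome 11 from 19924375 to 20024026, had 17.5, 15.9, 16.8 and 21.8 CPM in the control mice and 17.2, 20.1, 20.4 and 13.98 CPM in the CSF1 OE mice. Its genotypes overlapped along nearly their whole range. The log2 fold change was -0.0059 (95% interval -0.36 to 0.35, edgeR adjusted p = 0.987), and its sign turned when any 1 of control mouse 1934 and CSF1 OE mice 1931 and 2019 was left out. The estimate was -0.22 with the term for animal numbers.

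*Etv5* and *Etv4* encode ETS transcription factors of the same subfamily. *Etv5*, on chromosome 16 from 22381309 to 22439719 (reverse strand), had 234, 223, 208 and 178 CPM in the control mice and 190.0, 171, 201 and 213 CPM in the CSF1 OE mice. It was among the steadiest of the 9 genes, with a 1.37-fold range over all mice and a log2 fold change of -0.12 (95% interval -0.37 to 0.12, edgeR adjusted p = 0.600). With the term for animal numbers the estimate turned to 0.0072.

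*Etv4*, on chromosome 11 from 101769742 to 101785371 (reverse strand), had the largest difference of the group and was its least expressed gene per kb in control mice. It was measured at 5.37, 2.84, 2.95 and 4.73 CPM in the control mice and at 7.31, 7.27, 12.1 and 4.60 CPM in the CSF1 OE mice, which rest on 39 to 178 counts a library. CSF1 OE mice 1931, 1932 and 1936 were above every control mouse, while 2019 was below 2 of the control mice. Means were 3.97 ± 1.28 CPM in the control mice and 7.83 ± 3.14 CPM in the CSF1 OE mice (SD, n = 4 each) and the log2 fold change was 0.98 ± 0.33 (SE) with a 95% interval from 0.22 to 1.73. Adjusted p was 0.202 with edgeR and 0.0781 with DESeq2. The log2 ratio of the means was 0.91 among mice numbered 1931 to 1936 and 0.31 among the others. Without CSF1 OE mouse 1936 the log2 fold change was 0.69, and with animal numbers as a term it was 0.63 (edgeR adjusted p = 0.229). CSF1 OE mouse 1936, the highest for *Etv4*, also had the highest OPC sum, as given for *Spry2*. CSF1 OE mouse 2019, the lowest CSF1 OE mouse for *Etv4*, had the lowest, 127 CPM. Control mice 1934 and 1874, next highest for that sum, had only 4.73 and 2.95 CPM of *Etv4*. CSF1 OE mice 1931 and 1932, above every control mouse for *Etv4*, had OPC sums within the control range (272 and 280 CPM). The astrocyte marker *Gfap*, named after its values were seen, had 13.1, 11.3, 17.1 and 26.4 CPM in the control mice and 31.3, 26.01, 49.9 and 18.1 CPM in the CSF1 OE mice. The sum of the 10 astrocyte markers ran from 405 to 764 CPM in the control mice and from 336 to 780 CPM in the CSF1 OE mice, with 7 of 10 estimates lower and 0 called. Mouse 1936 had the highest astrocyte sum as well. The part of these cells in the *Etv4* values was not tested.

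*Myc* encodes a transcription factor that promotes growth and ribosome production and lies on chromosome 15 from 61985391 to 61990374. It had 51.4, 46.9, 19.4 and 47.2 CPM in the control mice and 30.1, 79.1, 29.7 and 26.02 CPM in the CSF1 OE mice. In each genotype 1 mouse stood apart, control 1874 below and CSF1 OE 1932 above the other 3 mice. Without control mouse 1874 and without CSF1 OE mouse 1932, the estimate was -0.23 and -0.53. With all mice the means were 41.2 ± 14.7 and 41.3 ± 25.3 CPM (SD, n = 4 each), and the log2 fold change was 0.0011 (95% interval -0.93 to 0.93, edgeR adjusted p = 0.999). An estimate so near 0 changed sign with the scaling, to -0.012 with upper-quartile factors.

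**Figure D2:**
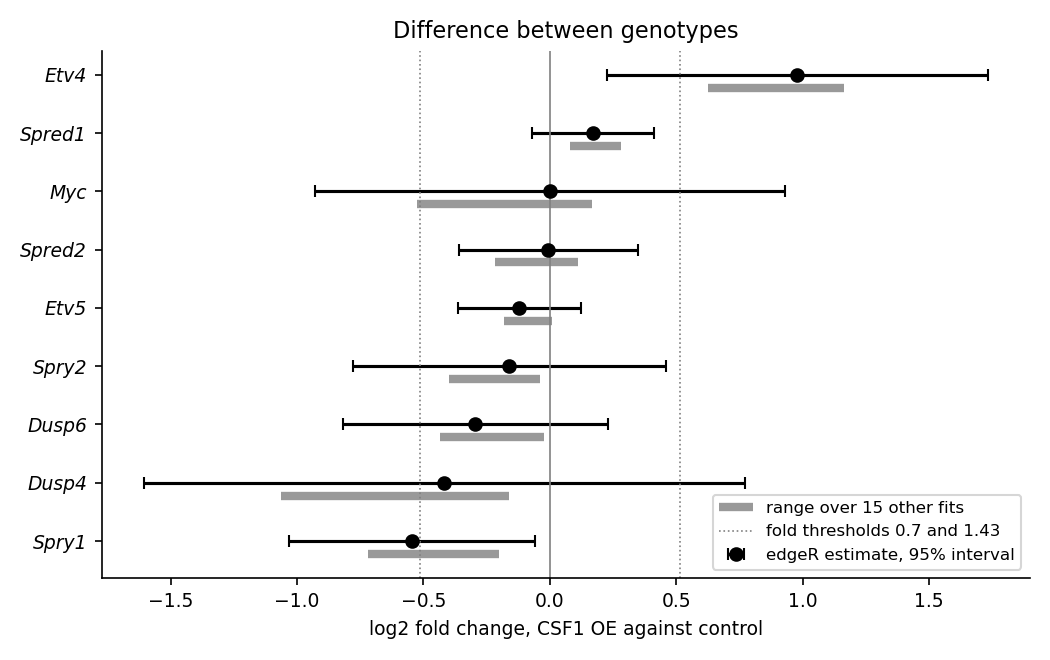
Log2 fold change of each gene, CSF1 OE against control (x axis), with the edgeR estimate (point) and its 95% interval (black bar). Grey bars give the range of the estimate over 15 other fits, dotted lines the fold thresholds, and the intervals of *Etv4* (0.22 to 1.73) and *Spry1* (-1.03 to -0.060) are the only ones that do not reach 0.

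Over the 8 mice, 36 pairs of these genes were compared on log2 CPM, and none had an adjusted p under 0.05 (two-sided exact permutation tests, Benjamini-Hochberg adjustment over the 36 pairs). The pair with the highest correlation was *Dusp4* and *Myc*, with r = 0.89 (permutation p = 0.00350, adjusted p = 0.126) and Spearman's rho = 0.88 (permutation p = 0.00724, adjusted p = 0.130). Without the 2 mice farthest from the median of *Dusp4*, r was 0.96, and for deviations from the genotype means it was 0.93. *Dusp6* and *Spry1* had r = 0.86 (permutation p = 0.0159, adjusted p = 0.285) and rho = 0.88 (permutation p = 0.00724, adjusted p = 0.130), with r = 0.81 without the 2 mice farthest from the median of *Dusp6* and 0.83 for deviations from the genotype means. *Etv4* ran opposite to *Spry1* (r = -0.77, permutation p = 0.0272, adjusted p = 0.287; rho = -0.81, permutation p = 0.0218, adjusted p = 0.196) and to *Dusp6* (r = -0.76, permutation p = 0.0319, adjusted p = 0.287; rho = -0.83, permutation p = 0.0154, adjusted p = 0.185). With *Spry1* the r was -0.46 without control mice 1872 and 1874, the farthest from its median, and -0.59 for deviations from the genotype means. With *Dusp6* it was -0.41 without CSF1 OE mice 1931 and 1936, and -0.72 for deviations. In all, 21 of the 36 pairs had a positive r and 15 a negative one, with a median of 0.047.

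The mice with high *Dusp4* and *Myc* were also those with high heat shock transcripts, a list of 10 genes chosen after their values were seen. The summed level of that list was 12543, 9124, 2577 and 9880 CPM in the control mice and 2532, 16930, 3056 and 3254 CPM in the CSF1 OE mice. CSF1 OE mouse 1932 was highest for *Dusp4*, *Myc* and heat shock genes alike, and the other high mice were controls 1827, 1872 and 1934. None of the heat shock genes was called between genotypes. Their part in the *Dusp4* and *Myc* values was not tested.

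**Figure D3:**
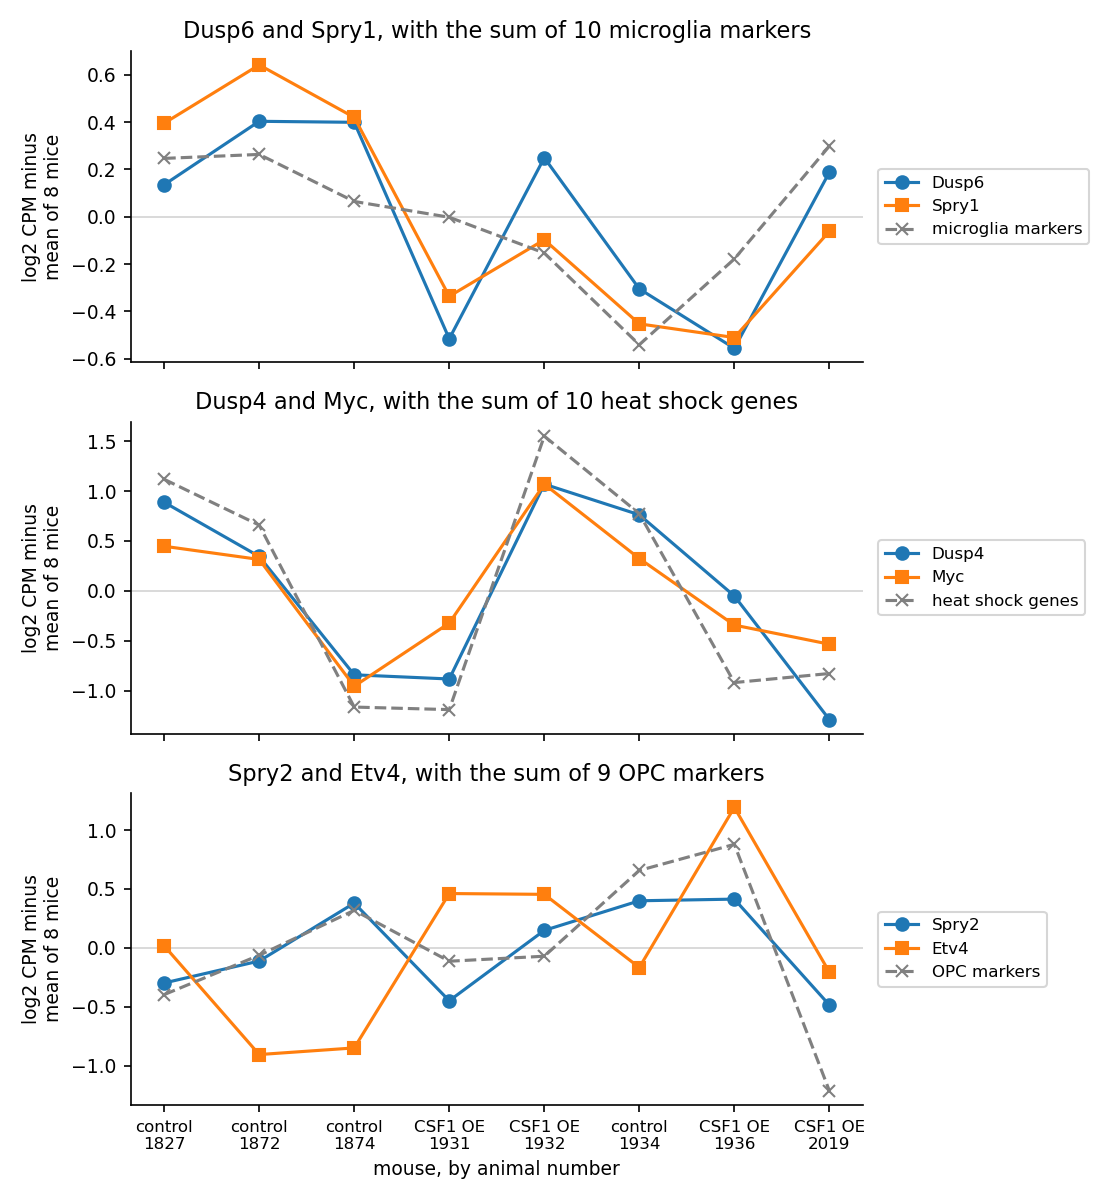
Log2 CPM minus its mean over 8 mice (y axis) for 3 pairs of genes, with the summed level of 1 marker list in each panel (dashed grey), and mice ordered by animal number. *Dusp4* and *Myc* are high in mice 1827, 1872, 1932 and 1934, as is the heat shock sum, whose genes were chosen after values were seen. *Dusp6* and *Spry1* are both highest in 1872 and 1874 and lowest in 1931, 1934 and 1936. *Spry2*, *Etv4* and the OPC sum are highest in 1936, as is the sum of astrocyte markers, which is not drawn.

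The gene most like each of the 9 was sought by Pearson's r of log2 CPM over the 8 libraries, among tested genes with a mean of at least 10 CPM, as a description without a test. *Dusp4* was most like *Hspb1* (r = 0.96) and *Slc23a2* (0.96), and *Myc* was most like *Hsp90ab1* (0.98) and *Hspd1* (0.97), of which *Hspb1*, *Hsp90ab1* and *Hspd1* encode heat shock proteins. *Dusp6* was most like *Zfp148* (0.96) and *Scyl3* (0.96), and *Spry1* like *Zc3h10* (0.99) and *Usf1* (0.98). For *Spry2* these were *Pcnx* (0.97) and *Slc4a4* (0.96), a bicarbonate transporter gene, and for *Etv4* *Ppp2r1a* (0.98) and *Hspa14* (0.98). *Spred1* was followed by *Cd1d1* (0.96) and *Tceb1* (0.96), *Spred2* by *Sqle* (0.99), an enzyme of cholesterol synthesis, and *Bod1* (0.99), and *Etv5* by *Mgat1* (0.96) and *Fkbp14* (0.95). For each of the 9, between 17 and 155 genes had an r over 0.9, which is 0.181% to 1.65% of the genes compared.

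Of 21 further feedback genes of the same families, 19 were tested and 0 called with edgeR, with 3 at an unadjusted p under 0.05 (1 higher, 2 lower) where 16.5% of all genes passed, and a median log2 fold change of -0.13. The highest estimate was that of *Dusp2*, a nuclear MAP kinase phosphatase gene of immune cells, with 41.2, 47.1, 69.3 and 36.3 CPM in the control mice and 126, 46.8, 112 and 133 CPM in the CSF1 OE mice. CSF1 OE mice 1931, 1936 and 2019 were above every control mouse, and 1932 was within the control range. Its log2 fold change was 1.11 ± 0.32 (SE, edgeR adjusted p = 0.149), and it was called with DESeq2 (1.11, adjusted p = 0.0195) and with the term for animal numbers (1.36, edgeR adjusted p = 0.0359). Over all genes, DESeq2 called 427 of 16835 and the fit with that term 1273 of 13407. The lowest estimate was that of *Dusp8*, a phosphatase gene for stress-activated MAP kinases, at -0.73 (edgeR adjusted p = 0.409), with 65.8 ± 19.3 CPM in the control mice and 39.6 ± 26.8 CPM in the CSF1 OE mice (SD, n = 4 each).

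No gene of the cascade from the receptor to ERK was called, beside 0.44% of all genes. All 28 genes listed were tested, with 4 at an unadjusted p under 0.05 (3 higher, 1 lower) beside 16.5% of all genes, and the median log2 fold change was 0.040. *Csf1r* had 10928, 11623, 9774 and 6563 CPM in the control mice and 10147, 9031, 9057 and 12128 CPM in the CSF1 OE mice, with a log2 fold change of 0.054 ± 0.21 (SE, edgeR adjusted p = 0.914). *Gab1*, whose product is a docking protein beneath receptor tyrosine kinases, had the lowest estimate and was the 1 cascade gene of 28 whose genotypes did not overlap, where 3.45% of all genes tested were separated in this direction. It had 149.8, 148, 154 and 137 CPM in the control mice and 124, 121, 104 and 114 CPM in the CSF1 OE mice, with every CSF1 OE mouse below every control mouse. Its log2 fold change of -0.34 ± 0.079 (SE, edgeR adjusted p = 0.0855) was within the fold threshold.

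Other ETS factors, including the microglial factor gene *Spi1*, were examined together with *Srf*, whose product binds DNA with some of them. Of 15 genes tested, 0 were called, beside 0.44% of all genes. With edgeR 1 of the 15 had an unadjusted p under 0.05, beside 16.5% of all genes, and the median of the list was 0.054. Estimates ran from *Erg* at -0.57 (edgeR adjusted p = 0.488), a gene of endothelial cells, to *Elf4* at 0.28 (edgeR adjusted p = 0.318). *Erg* was called lower with the term for animal numbers (-1.19, edgeR adjusted p = 0.0411), in a fit that called 1273 of 13407 genes. The endothelial marker sums that stood beside *Erg* are given above. Their part in it was not tested. The 15 immediate early genes, which ERK and tissue dissociation can both induce, gave 0 calls, beside 0.44% of all genes. With edgeR 0 of the 15 had an unadjusted p under 0.05, beside 16.5% of all genes, and their median was -0.10. Their extremes were *Nr4a1*, an orphan nuclear receptor gene, at -0.55 (edgeR adjusted p = 0.382) and *Ier2* at 0.38 (edgeR adjusted p = 0.575).

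Partners and targets of MYC were examined because *Myc* is both an ERK target and a regulator of many genes. In the MYC network, the partners and competitors of MYC, 12 genes were tested and 0 called, beside 0.44% of all genes. With edgeR 1 of the 12 had an unadjusted p under 0.05, beside 16.5% of all genes, and their median was -0.062. The estimates ran from *Mycl*, a *Myc* paralog, at -0.41 (edgeR adjusted p = 0.184) to *Mnt*, which encodes a repressor that competes for MAX, at 0.39 (edgeR adjusted p = 0.393). Of 20 genes known as MYC targets, 1 was called, *Npm1*, where 0.44% of all genes were called. At an unadjusted p under 0.05, 11 of the 20 had a higher estimate (10.1% of all genes) and 1 a lower one (6.44%). In 8 of the 20 every CSF1 OE mouse was above every control mouse, where 6.84% of all genes tested were separated in this direction, and the median log2 fold change was 0.29. *Npm1*, which encodes a nucleolar protein of ribosome assembly and is also named by the study, had 349, 295, 292 and 322 CPM in the control mice and 472, 449, 504 and 458 CPM in the CSF1 OE mice. It rose with a log2 fold change of 0.58 ± 0.091 (SE, edgeR adjusted p = 0.0431). With 1 mouse left out, *Npm1* was called only when that mouse was control 1827 (edgeR adjusted p = 0.0361). The lowest estimate was that of *Tfrc*, the transferrin receptor gene, at -0.58 (edgeR adjusted p = 0.233). These lists were written with earlier results of the same libraries known, and the list of targets shares *Hspe1* with the heat shock genes, so their counts are no independent evidence about *Myc*.

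**Figure D4:**
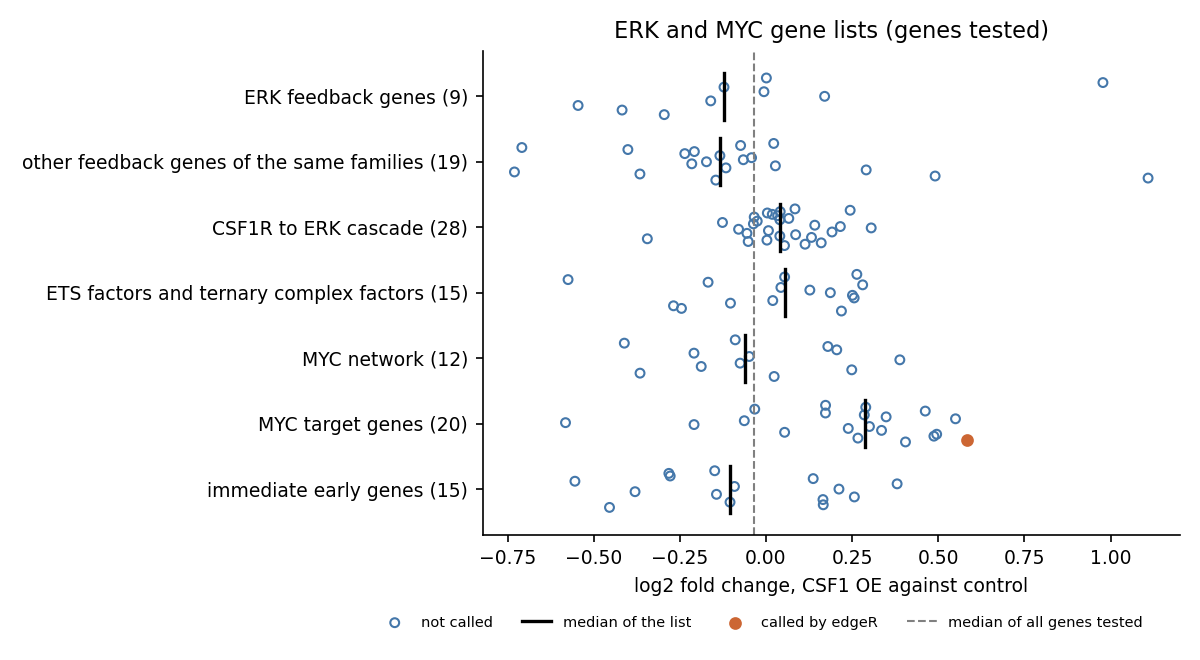
Log2 fold change, CSF1 OE against control (x axis), of every tested gene in 7 lists, with the number tested in brackets, the median of each list (black bar) and of all genes tested (dashed line, -0.034). Only *Npm1* (filled, 0.58) is called, the 9 ERK feedback genes have a median of -0.12, and the MYC target genes one of 0.29.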

How the data were processed

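RNA of CD11b+ cells was measured in 8 libraries, 4 control and 4 CSF1 OE, assigned by the genotype codes in their labels. The authors' reads were mapped with Bowtie 1.0.0 and assigned to genes with RSEM 1.2.7 after bcl2fastq 1.8.4, on mm10 per the submitters' processing notes, and the annotation is not given in the sources used here. The deposited values are expected counts per gene and mouse, and a deposited table of normalized signal, made by dividing each library by its own size factor. RSEM divides reads that fit several genes, and between 20.8% and 26.5% of the values of a library were not whole. The kit (TruSeq RNA v2) does not mark strand.

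Expected counts were rounded and tested with edgeR 4.0.16 in R 4.3.3 (filterByExpr, TMM, glmQLFTest, no covariate), with Benjamini-Hochberg adjustment over all genes tested. CPM used the TMM-normalized library size, and log2 CPM a prior count of 2. Between 15151 and 15885 genes had a count, and 3 counts, the most a count of 0 allows, came to between 0.194 and 0.249 CPM of the unscaled total count (counting error only). No library was a copy of another (chi-square per gene 14.5 to 86.3 over 28 pairs). Alternatives were DESeq2 1.42.0, limma 3.58.1 (trend on log2 of the deposited signal, pseudocount 1 or 10), a filter on any count, a minimum of 10 counts in all libraries, upper-quartile factors, no fold threshold, a term for animal numbers 1931 to 1936 and each mouse left out. The fits were run on simulated counts, with each gene varied independently, to check the size of the estimates. The share of true changes found there is not reported here, so that run does not bear on how many changes the calls could miss. Positions and exon lengths are from GENCODE M21 (GRCm38), and promoter windows from RefSeq.

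The 9 genes and all lists were chosen with earlier results of these data known. Named were the 9, in each other list the genes with the highest and the lowest estimate and every gene called, the 2 genes most like each of the 9, *Csf1r*, *Csf1* and markers beside a result, and others are stated as chosen after their values were seen. The highest estimate of the cascade list is not reported here. The p-values measure the spread between single mice of each genotype.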

Additional observations from a re-analysis of the deposited data

Results flagged for a closer look

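*Myc* was unevenly spread within both genotypes. In control mice, *Myc* was 19.4 CPM in mouse 1874 and between 46.9 and 51.4 CPM in the other 3. In CSF1 OE mice, *Myc* was 79.1 CPM in mouse 1932 and between 26.02 and 30.1 CPM in the other 3. In each case the gap between the single mouse and its nearest neighbor took up most of the range of the genotype, 0.859 and 0.922 of it. Both were singled out among 42 groups of 4 mice examined. These were the 9 genes and some, not all, of the other genes named by rule, in each genotype. A few such cases arise by chance alone. The same mice were at the ends of the heat shock sum of their genotype, 2577 CPM in control mouse 1874 and 16930 CPM in CSF1 OE mouse 1932. The heat shock list was chosen after values were seen, so this match is no independent evidence. The part of heat shock in the *Myc* values was not tested.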

How the results depend on the processing

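The 9 genes gave 0 calls in each of the 15 other fits and without a fold threshold, with between 0 (without CSF1 OE mouse 1936) and 3 (without CSF1 OE mouse 1932) at an unadjusted p under 0.05. Over all genes, 2008 of 13496 passed without CSF1 OE mouse 1936 and 2225 of 13576 without CSF1 OE mouse 1932. Of 135 estimates for the 9 genes, 12 changed sign, none of them called. *Spred2* became 0.11 without control mouse 1934, 0.016 without CSF1 OE mouse 1931 and 0.096 without CSF1 OE mouse 2019 (range with 1 mouse left out -0.071 to 0.11), and *Etv5* 0.0072 with the term for animal numbers. *Myc* became -0.00057 with DESeq2, -0.012 with upper-quartile factors, -0.0049 with at least 10 counts in every library, -0.30 with the term for animal numbers, -0.064 and -0.063 with limma at pseudocounts of 1 and 10, -0.23 without control mouse 1874 and -0.53 without CSF1 OE mouse 1932 (range with 1 mouse left out -0.53 to 0.17).

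Over all genes, 59 calls (88.1% higher) became 427 with DESeq2 (63.0% higher), 19 with upper-quartile factors, 1273 with the term for animal numbers (23.7% higher), 104 and 99 with limma, and 3 to 164 with a mouse left out, 3 without control mouse 1872 or 1874 and 164 without control mouse 1827. The other feedback genes gave 1 call with DESeq2 (*Dusp2*) and 2 with the term for animal numbers (*Dusp2* higher, *Epha4* lower), the list of ETS factors 1 with that term (*Erg*), and the MYC targets 0 with upper-quartile factors, 3 with the term (*Npm1* higher, *Ccnd2* and *Tfrc* lower) and 0 to 1 with a mouse left out, where the 1 was *Npm1* without control mouse 1827 and *Fbl* without CSF1 OE mouse 2019. The cause of these shifts was not tested. The term for animal numbers overlaps with genotype, since 3 of the 4 mice from 1931 to 1936 were CSF1 OE. No paired analysis was possible because the mice share no replicate numbers. Counts of 39 to 178 per library limit *Etv4*, and 38 to 105 limit *Spry2*.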

Other observations

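Several ERK and MYC genes outside the 9 showed values that were noticed after the data had been seen. *Epha2*, a receptor tyrosine kinase gene induced by ERK, had 253.8, 229, 217 and 172 CPM in the control mice and 159, 174, 175 and 152 CPM in the CSF1 OE mice, with a log2 fold change of -0.40 ± 0.12 (SE, edgeR adjusted p = 0.161). Control mouse 1934 was again the control mouse closest to the CSF1 OE mice, as it was for *Spry1*. *Epha4* had a log2 fold change of -0.71 (edgeR adjusted p = 0.276), and *Dusp5*, a nuclear phosphatase gene for ERK, one of 0.49 (edgeR adjusted p = 0.327), with 14.7 to 32.9 CPM in the control mice and 25.9 to 36.9 CPM in the CSF1 OE mice. *Dusp1*, which dissociation also induces, had 493 ± 153 CPM in the control mice and 446 ± 107 CPM in the CSF1 OE mice (SD, n = 4 each), a log2 fold change of -0.15 (edgeR adjusted p = 0.794).

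Among the MYC targets, *Ncl*, *Nop56*, *Nop58*, *Fbl*, *Cdk4*, *Mrto4* and *Eif4e* had every CSF1 OE mouse above the highest control mouse without being called, where 6.84% of all genes tested were separated in this direction. The genotypes overlapped for *Polr1b* (log2 fold change -0.063), *Ppan* (0.55) and *Rrp9* (0.17), which also serve ribosome production. *Ncl*, the nucleolin gene, had 469 to 528 CPM in the control mice and 635 to 699 CPM in the CSF1 OE mice, and its log2 fold change was 0.40 (edgeR adjusted p = 0.0690). *Fbl*, the gene of the RNA methylase fibrillarin, had a log2 fold change of 0.50 (edgeR adjusted p = 0.0600) and *Nop58*, its partner in the same particles, one of 0.49 (edgeR adjusted p = 0.0852). *Myc* itself had a log2 fold change of 0.0011 with a 95% interval from -0.93 to 0.93, and *Mycl* one of -0.41 (edgeR adjusted p = 0.184).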
